A study of Mus musculus with 3 samples.

Results

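Expression of 9 coagulation and fibrinolysis genes was examined in bone marrow-derived macrophages (BMDMs): F3, F7, F10, Thbd, Procr, Plau, Plaur, Serpinb2 and Thbs1. They are 9 of the 34821 gene names on the array. The group was put together after Procr and Thbs1 had been seen high in one condition, so it was selected on these same signals and every value below is a description.

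The cells were grown from C57BL/6J mouse bone marrow for 4 to 6 days in medium with M-CSF at 10 units/ml, and RNA was taken after 20 h of stimulation. There were 3 conditions. CpG is a DNA that triggers Toll-like receptor signaling. IFN-γ + αIL-10R is interferon-γ with a blocker of the IL-10 receptor, labelled IFN-g+IL-10RB, and Triple is all of these agents together. The study looked for receptors of hemophagocytosis, the uptake of blood cells by macrophages. Each condition had 1 one-colour Agilent array, so no difference has a replicate check and none was tested. No array of unstimulated cells was analysed here.

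Coagulation begins when tissue factor, the product of F3, binds factor VII and the complex activates factor X, which in turn makes thrombin. Thrombin bound to thrombomodulin (Thbd) activates protein C, and the endothelial protein C receptor (Procr) presents protein C for that step, which restrains clotting. Fibrinolysis runs through urokinase (Plau), its receptor (Plaur) and its inhibitor PAI-2 (Serpinb2), and thrombospondin-1 (Thbs1) is a matrix protein that platelets also release. Monocytes and macrophages can make several of these proteins when they meet inflammatory stimuli.

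The 9 genes had 12 probes with 1 spot each and no outlier mark. Of the 59305 spots on each array that were not controls, 46.0% were marked by the software as well above background, here called detected, under CpG, 44.8% under IFN-γ + αIL-10R and 44.4% under Triple, and 0 were saturated. The scanner software gave each signal an error, near 10.0% for bright spots. Spots of the same probe on 1 array gave a second estimate, a technical SD of 0.08 for a log2 fold of Triple over CpG at signals over 1000, 0.14 at 100 to 1000 and 0.30 under 100. Neither covers differences between cultures, RNA preparations or labellings. Folds are between scaled signals. A fold over a signal that was not detected is a lower bound and is written "at least". In such bulk RNA, fewer cells that express a gene and less RNA per cell cannot be told apart.

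The array labels were set against genes known to respond to each agent. Gbp2, an interferon-inducible GTPase, had signals of 3111 under CpG, 239515 under IFN-γ + αIL-10R and 252036 under Triple. Il6 had 319, 6.52 and 24279, the second not detected. The arrays labelled with IFN-γ were thus high in the interferon gene and those labelled with CpG in the cytokine. Among 5 interferon-γ response genes, 4 were higher by more than 2-fold under Triple than under CpG, and against IFN-γ + αIL-10R 2 were higher and 1 (Ciita) lower. All 5 Toll-like receptor response genes were higher in Triple than in either. Of 4 genes of the IL-10 response, 2 were higher in Triple than in CpG and 3 than in IFN-γ + αIL-10R. Il10 itself had 3117, 1271 and 9957. The blocker was always given with IFN-γ, so these genes do not check its label. No reference gene passed 2-fold in any comparison. Actb differed by a log2 fold of 0.07 and 0.09 in the Triple comparisons, and Hprt by −0.60 and −0.72.

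**Figure D1:**
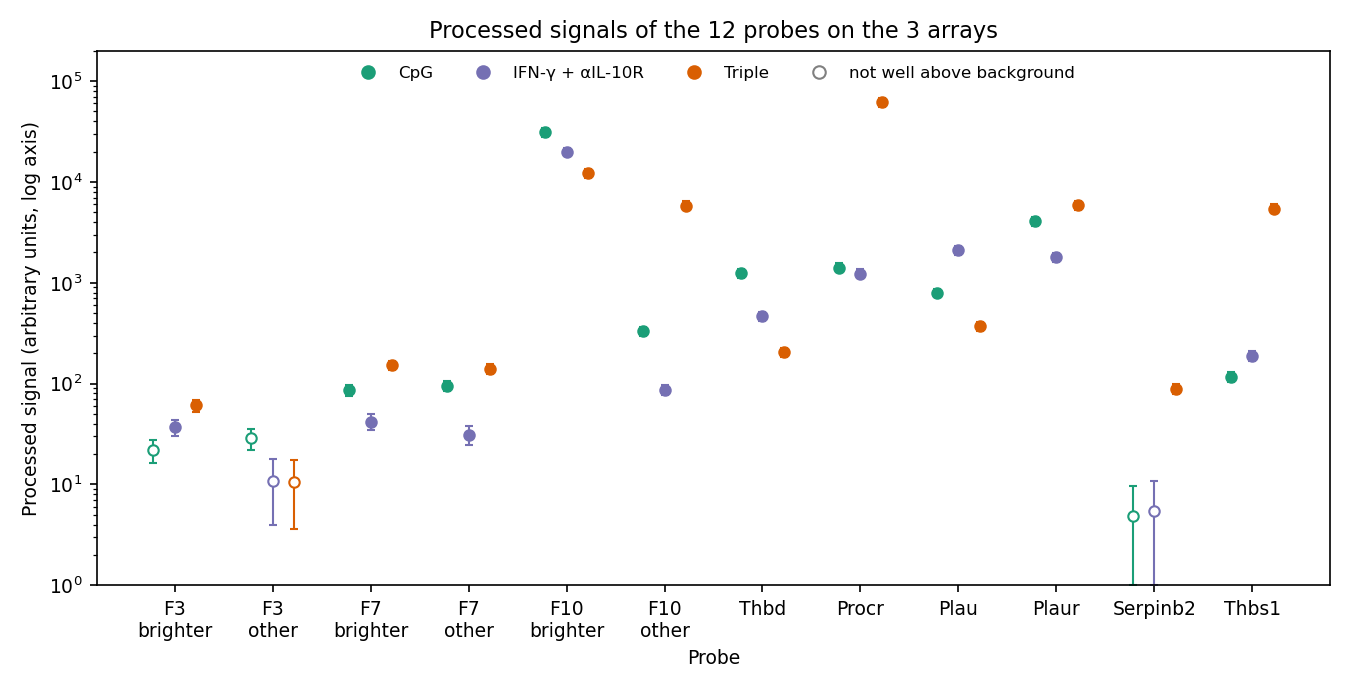
Processed signal (arbitrary units, log axis) of each of the 12 probes on the CpG, IFN-γ + αIL-10R and Triple arrays, 1 array each. Bars are the error given by the scanner software, clipped at the bottom of the axis, and open circles are signals not detected. Procr and Thbs1 stood far higher in Triple, Thbd and Plau lower, and the F10 probes went opposite ways.

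Tissue factor and its partner were dim. F3, the initiator of the extrinsic pathway, had a signal of 22.1 ± 5.61 under CpG (error of the software throughout), 37.1 ± 6.77 under IFN-γ + αIL-10R and 61.2 ± 8.31 under Triple. The first was not detected, and the other probe of F3 was detected on no array, with 28.8, 10.9 and 10.6. F3 was thus at least 2.68-fold higher under Triple than under CpG and 1.69-fold higher than under IFN-γ + αIL-10R, a log2 fold of 0.75 ± 0.33, or 0.38 with normexp. The bound over CpG was under 2-fold with normexp background correction, a log2 fold of 0.64, and with the mean of both probes, 0.07.

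F7, which encodes the protease that tissue factor binds, had a signal of 85.9 ± 10.3 under CpG, 42.1 ± 7.37 under IFN-γ + αIL-10R and 153 ± 16.5 under Triple. Its other probe had 94.6, 31.3 and 141. The probes share bases: they lie at chr8:13035287-13035346 and chr8:13035257-13035316 (mm9, + strand by the order of the coordinates), so they are not separate measurements of the transcript. Both put Triple first, CpG second and IFN-γ + αIL-10R last. Triple was 1.85-fold higher than CpG and 3.72-fold higher than IFN-γ + αIL-10R, and with normexp the log2 folds were 0.63 and 1.05, from 0.89 and 1.90. CpG was 2.01-fold higher than IFN-γ + αIL-10R, a log2 fold of 1.01 ± 0.31, at the threshold. It was not past 2-fold with normexp (0.42), median scaling (0.94), relative to Actb (0.98) or with quantile scaling (1.00). It was past 2-fold with the other alternatives, from 1.01 with outlier spots kept to 1.29 with the mean of both probes, and 1.57 with the other probe.

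The probes of F10, which encodes factor X, disagreed. The brighter one had a signal of 31300 ± 3130 under CpG, 19954 ± 1995 under IFN-γ + αIL-10R and 12129 ± 1213 under Triple. The other had 332 ± 33.7, 86.9 ± 10.5 and 5830 ± 583. The brighter probe was thus lowest in Triple and the other highest there. By the rule that takes the brighter probe, F10 was 2.48-fold lower in Triple than in CpG and 1.61-fold lower than in IFN-γ + αIL-10R. By the other it was 18.2-fold and 68.6-fold higher, log2 folds of 4.19 ± 0.21 and 6.10 ± 0.23. CpG was 1.54-fold higher than IFN-γ + αIL-10R by the brighter probe and 3.76-fold higher by the other.

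The first 30 of the 60 bases of each F10 probe are shown because the probes differ so much in sequence. The array annotation (mm9, + strand by the order of the coordinates) places the brighter at chr8:13056223-13056290 and the other at chr8:13055774-13055833. The span given for the brighter is longer than its 60 bases. A different RefSeq transcript of F10 is named for each probe.
F10, brighter probe: agaaagaaagaaagaaagaaagaaagaaag
F10, other probe: tggcatctacacaaaggtcacgaccttcct
The brighter probe opens with 8 repeats of AGAA, and 60 of its 60 bases are A or G. The other has 32. Across the array 23 probes consist of A and G only, and 20 of them, without that of F10, were detected on every array. Their log2 folds of Triple over CpG ran from −1.33 to −0.04 with a median of −0.31, and over IFN-γ + αIL-10R from −1.08 to 0.01 with a median of −0.22. The brighter F10 probe, at −1.31 and −0.69, was within both ranges, but over CpG through 1 probe only, since the next lowest after −1.33 was −0.42. Between CpG and IFN-γ + αIL-10R it was outside, at a log2 fold of 0.62 where the 20 ran from −0.45 to 0.26. The other F10 probe was outside all 3 ranges. Which transcripts bind the repeat was not tested. The main counts of the group below are thus given with either probe. Counts with normexp, other filters or other thresholds use the brighter one only. Of 3966 genes with several probes detected on every array, 3 (0.0756%) had probes more than 2-fold apart from equality in opposite directions between Triple and CpG, F10 among them.

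**Figure D2:**
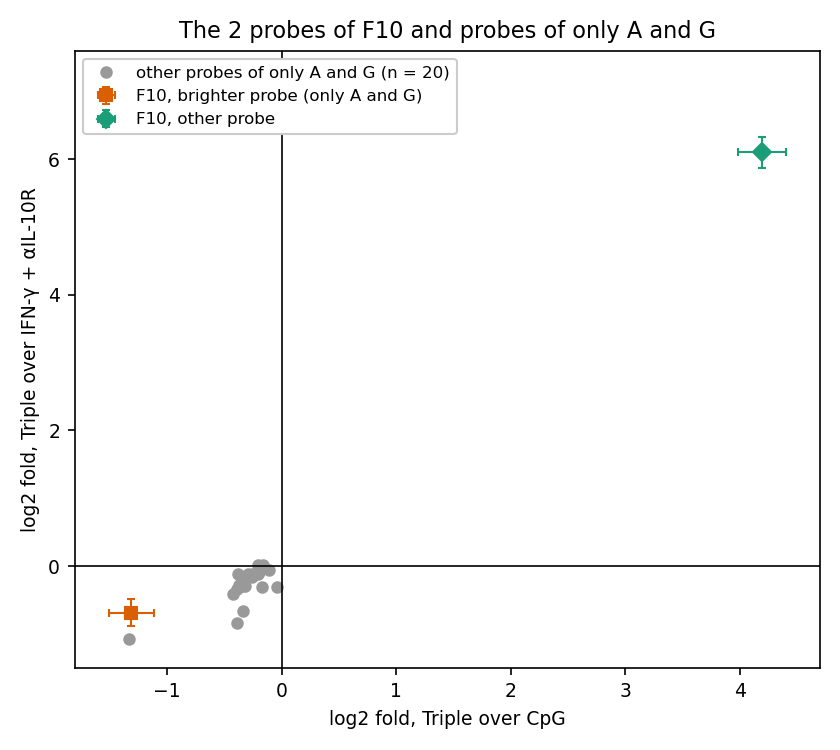
log2 fold of Triple over CpG (horizontal) against that over IFN-γ + αIL-10R (vertical), with bars for the error given by the scanner software. Shown are the probes of F10 and the 20 other probes made of A and G only that were detected on every array. The brighter F10 probe lay at −1.31 and −0.69, where 1 of the 20 (−1.33) was as low over CpG, and the other F10 probe at 4.19 and 6.10. Between CpG and IFN-γ + αIL-10R, not drawn, the brighter F10 probe (0.62) was above all 20 (highest 0.26).

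The genes of the protein C pathway went opposite ways. Procr had a signal of 1418 ± 142 under CpG, 1232 ± 123 under IFN-γ + αIL-10R and 61886 ± 6189 under Triple. The first pair differed by a log2 fold of 0.18 ± 0.20, within the error, and Triple was 45.3-fold and 51.3-fold higher. Among genes detected on both arrays compared, its fold ranked 27 of 16271 over CpG and 10 of 16133 over IFN-γ + αIL-10R. Procr was one of the genes that chose the group.

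Thbd, the thrombin receptor that starts protein C activation, had 1242 ± 124 under CpG, 465 ± 46.9 under IFN-γ + αIL-10R and 205 ± 21.4 under Triple. Its 3 signals were further apart than their errors. Triple was 5.83-fold lower than CpG, a log2 fold of −2.54 ± 0.21, and 2.22-fold lower than IFN-γ + αIL-10R, −1.15 ± 0.21. With normexp these were −2.13 and −0.92, the second under 2-fold.

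Procr and Serpinb2 passed 2-fold upward in both Triple comparisons and have a RefSeq promoter sequence (GRCm38.p6), so the 250 bases before their starts are shown. Of the 9 genes 6 had a promoter entry. Capitals mark matches, on either strand, to TGANTCA (AP-1), GGANTTTCC (NF-kB), TTCNNNGAA (STAT), GAAANNGAA (IRF) and TATAAA.
Procr, chr2:155750967-155751216, + strand: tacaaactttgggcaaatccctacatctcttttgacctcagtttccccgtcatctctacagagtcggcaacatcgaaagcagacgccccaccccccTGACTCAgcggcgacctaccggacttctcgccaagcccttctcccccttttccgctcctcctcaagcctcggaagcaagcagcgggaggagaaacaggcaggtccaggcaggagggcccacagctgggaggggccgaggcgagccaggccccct
Serpinb2, chr1:107511173-107511422, + strand: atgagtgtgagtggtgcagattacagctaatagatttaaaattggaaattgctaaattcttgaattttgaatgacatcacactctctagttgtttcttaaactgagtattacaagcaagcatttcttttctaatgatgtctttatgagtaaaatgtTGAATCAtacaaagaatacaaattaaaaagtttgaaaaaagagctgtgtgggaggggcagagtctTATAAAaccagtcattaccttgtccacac
The Procr stretch held 1 AP-1 match, 154 to 148 bases before the start. That of Serpinb2 held 1 AP-1 match, 94 to 88 bases before it, and TATAAA 29 to 24 bases before it. RefSeq lists 2 starts of Serpinb2, and the stretch of the second overlaps the one shown and also held a STAT match. Plaur had 1 AP-1 match, F3 had 2 and an NF-kB match, and F7 and F10 had no match. Over 32851 promoters of this length, 6.75% held AP-1, 1.07% NF-kB, 7.02% STAT, 7.13% IRF and 12.4% TATAAA. A match is a description of the letters and not a site.

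The genes of plasminogen activation also differed in direction. Plau, which encodes urokinase, had a signal of 797 ± 80.0 under CpG, 2097 ± 210 under IFN-γ + αIL-10R and 369 ± 37.5 under Triple. Triple was the lowest, 2.08-fold under CpG and 5.56-fold under IFN-γ + αIL-10R, log2 folds of −1.05 ± 0.21 and −2.47 ± 0.21. The first lay at the threshold: it was −0.89 with normexp, and −0.99 with the 75th percentile over all probes, with the median and by the log2 table of the authors, and −0.98 with quantile scaling.

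Plaur, the receptor that holds urokinase at the cell surface, had 4068 ± 407 under CpG, 1794 ± 179 under IFN-γ + αIL-10R and 5907 ± 591 under Triple. Triple was the highest, 1.51-fold over CpG, which is under the threshold, and 3.36-fold over IFN-γ + αIL-10R. CpG alone was 2.23-fold over IFN-γ + αIL-10R.

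Serpinb2, which encodes an inhibitor of urokinase, was detected in Triple only. It had 4.84 ± 4.88 under CpG, 5.42 ± 5.43 under IFN-γ + αIL-10R and 89.4 ± 10.4 under Triple. It was thus at least 3.91-fold higher under Triple than under CpG and at least 3.42-fold higher than under IFN-γ + αIL-10R, with no fold between the dim arrays. With normexp the bounds were log2 folds of 1.03 and 0.95. A gene that passes only through the array where it is high can only appear higher there, and F3 was detected in IFN-γ + αIL-10R and Triple but not in CpG. The other 7 genes were detected on every array.

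Thbs1 had 116 under CpG, 189 under IFN-γ + αIL-10R and 5446 under Triple, with errors of 11.2%, 10.6% and 10.0%. It was 49.0-fold higher under Triple than under CpG and 29.5-fold higher than under IFN-γ + αIL-10R, and ranked 24 and 26. With normexp these log2 folds were 4.94 and 4.46, from 5.61 and 4.88. With Procr, it was the other gene that chose the group. Between the other arrays it was 1.66-fold lower with CpG, a log2 fold of −0.73 ± 0.22, or −0.48 with normexp.

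**Figure D3:**
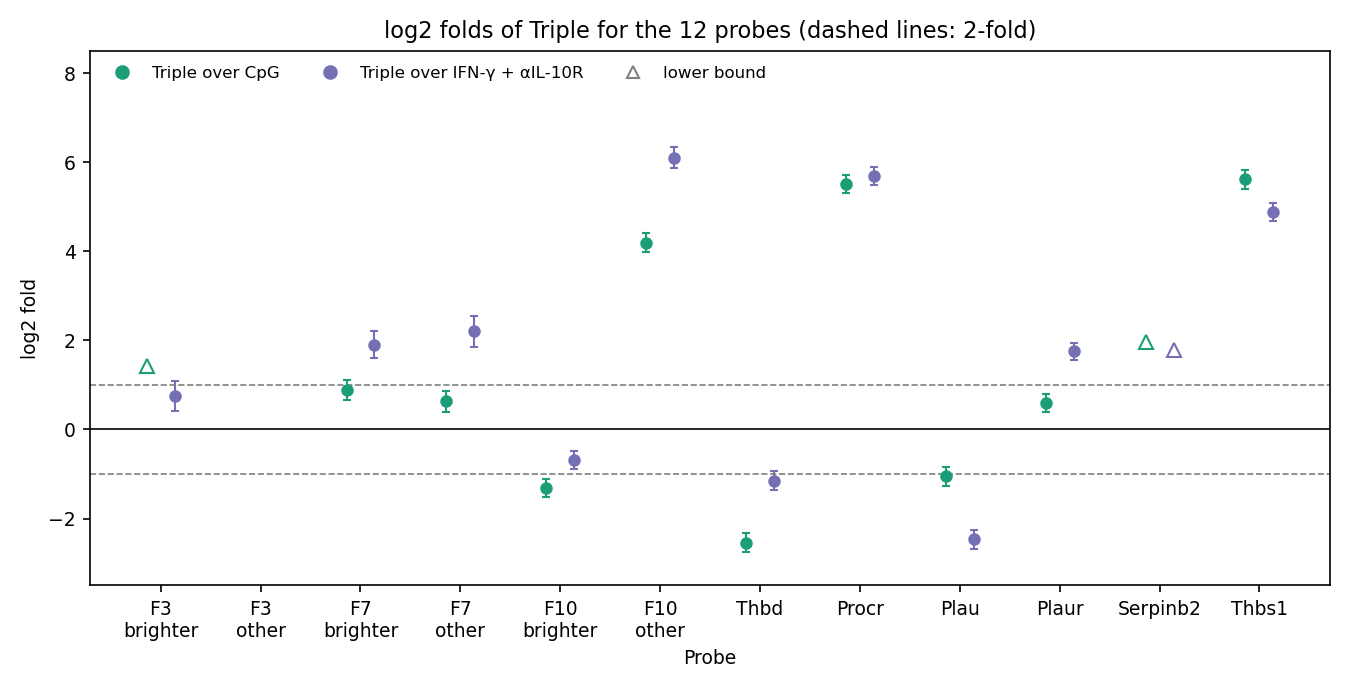
log2 fold of Triple over CpG and of Triple over IFN-γ + αIL-10R for each of the 12 probes, with bars for the error given by the scanner software and triangles for lower bounds. Dashed lines mark 2-fold, and the other probe of F3 has no fold because it was not detected on any array.

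Counted by comparison, 4 of the 9 genes were higher by more than 2-fold under Triple than under CpG (F3, Procr, Serpinb2 and Thbs1) and 3 lower (F10, Thbd and Plau), beside 4.08% and 4.55% of 33597 genes. With the other probe of F10 the counts were 5 and 2. Against IFN-γ + αIL-10R, 5 were higher (F7, Procr, Plaur, Serpinb2 and Thbs1) and 2 lower (Thbd and Plau), beside 3.53% and 5.01%, and 6 were higher with the other probe of F10. Procr, Serpinb2 and Thbs1 were higher and Thbd and Plau lower in both, among 693 and 922 genes of the array, and with its other probe F10 was also higher in both. With normexp only Procr and Thbs1 were higher in both by the brighter probes and 0 genes of the 9 lower in both, and Plau was also not lower in both with 4 of the other scalings. All 9 genes were detected on at least 1 array. Of the 18803 genes so detected, 7.29% were higher and 8.13% lower over CpG, and 6.31% and 8.95% over IFN-γ + αIL-10R. These comparisons share the Triple array and the group was picked with its signals known, so nothing is read from these shares. With normexp 3 of the 9 genes were higher and 2 lower than in CpG, and 4 and 1 against IFN-γ + αIL-10R. The array as a whole then had 937 genes higher and 913 lower than in CpG, from 1370 and 1529, and 800 and 1096 against IFN-γ + αIL-10R, from 1187 and 1682. The balance of higher and lower depended on the scaling: with the median it was 1478 to 1392 over CpG, and with the 75th percentile over all probes 1410 to 1455 over IFN-γ + αIL-10R.

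Between CpG and IFN-γ + αIL-10R, 3 genes were higher with CpG (F7, Thbd and Plaur) and 1 lower (Plau), beside 2.75% and 3.18%, that is 925 and 1068 genes, or 548 and 706 with normexp. Of the 18803 genes detected on at least 1 array, 4.92% were higher and 5.68% lower. With the other probe of F10 the higher count of the 9 genes was 4. These are the arrays that Triple was set against when the group was picked. The median log2 fold of the 7 genes detected on every array was 0.59, 1.75 and 0.62 in the 3 comparisons, or 0.89, 1.90 and 1.01 with the other probe of F10, beside −0.05, −0.04 and −0.00 over 15891 genes. Procr and Thbs1, whose high signals in Triple chose the group, are among the 7. Nothing is thus read from these medians. Spots within 8 rows and columns of each probe, 81 to 126 of them, had median log2 differences from −0.13 to 0.10 in these comparisons.

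Other genes of clotting and its control were taken from lists. Of 48 genes listed, 46 were measured and 21 were detected on at least 1 array. Of these, 2 were higher and 6 lower by more than 2-fold under Triple than under CpG, 0 higher and 4 lower than under IFN-γ + αIL-10R, and 0 passed 2-fold between CpG and IFN-γ + αIL-10R. Of the 18803 genes detected on at least 1 array, 7.29% were higher and 8.13% lower, 6.31% and 8.95%, and 4.92% and 5.68% in these comparisons. Of 15 measured cascade genes, F2 (prothrombin) was dim, with 17.8, 6.49 and 48.3, detected in Triple only and at least 2.11-fold higher there than in CpG, though not past 2-fold with normexp. Vkorc1, the enzyme that recycles vitamin K for clotting factors, had 17783, 20118 and 7913, 2.16-fold and 2.49-fold lower in Triple. Most other cascade genes, such as the fibrinogen chains, were not detected.

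Among 10 measured inhibitors of coagulation, 3 were lower by more than 2-fold under Triple than under CpG. Pros1, the protein S that helps activated protein C, had 1369 under CpG, 1558 under IFN-γ + αIL-10R and 428 under Triple, 3.08-fold and 3.57-fold lower. Tfpi, which inhibits the tissue factor complex, had 1349, 868 and 604, 2.15-fold lower than CpG and 1.41-fold lower than IFN-γ + αIL-10R. Serpina10, which inhibits activated factor X, had 89.2, 51.7 and 39.9, also 2.15-fold lower than CpG. Tfpi and Serpina10 did not pass 2-fold with normexp or with the mean of all probes.

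Among 11 measured genes of fibrinolysis, Plgrkt, a plasminogen receptor, had 3577 under CpG, 6039 under IFN-γ + αIL-10R and 8060 under Triple. It was 2.34-fold higher under Triple than under CpG and 1.36-fold higher than under IFN-γ + αIL-10R. S100a10 and Lrp1 of this list were lower under Triple in both comparisons. S100a10, which binds plasminogen with annexin A2, had 17974, 13375 and 6388, 2.71-fold and 2.05-fold lower. Lrp1, a receptor that clears protease and inhibitor complexes, had 15394, 12652 and 4754, 3.12-fold and 2.60-fold lower. The fold of S100a10 over IFN-γ + αIL-10R did not pass 2-fold with the percentile over all probes or by the log2 table of the authors, nor did that of Lrp1 with the mean of all probes. Of the 4 genes in the list of thrombin receptors (F2r, F2rl1, F2rl2 and F2rl3), 0 were detected. Of 6 thrombospondins and their receptors 3 were detected and 0 passed 2-fold.

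**Figure D4:**
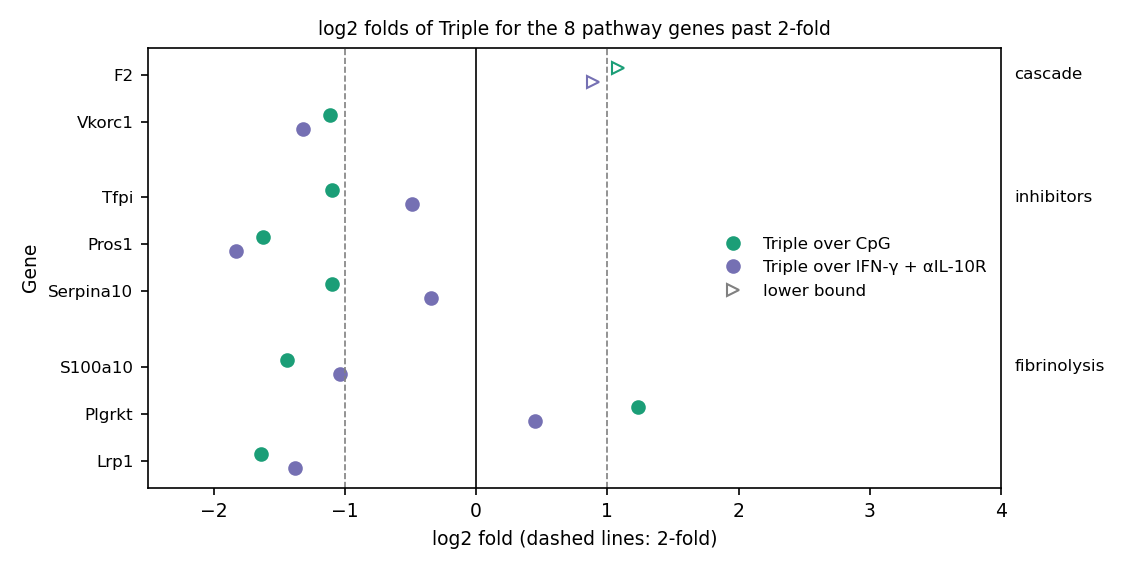
log2 fold of Triple over CpG and of Triple over IFN-γ + αIL-10R for the 8 listed pathway genes past 2-fold in at least 1 comparison, by list, with open triangles for lower bounds and dashed lines at 2-fold. Vkorc1, Pros1, S100a10 and Lrp1 were beyond 2-fold lower in both, though over IFN-γ + αIL-10R not with the percentile over all probes or the log2 table of the authors (S100a10) or the mean of all probes (Lrp1).

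For Procr, Thbs1, Thbd and Plau, the genes with the nearest folds were found by distance over the log2 folds of Triple, among 10691 candidate genes only. The probe with the highest mean stood for each gene. The other probe of F10, with log2 folds of 4.19 and 6.10, was thus not a candidate. Nearest to Procr was Thbs1, at a distance of 0.81, followed by Ramp3 at 1.20 and Ly6i at 1.72. Ramp3 and Ly6i were also the next nearest to Thbs1, at 1.06 and 1.31. Procr and Thbs1 chose the group by their high signals in Triple, which these distances also use. Nothing is thus read from their nearness to each other. Nearest to Thbd were Rab6b and Pgm2l1 at 0.16 and Trim2 at 0.18, and nearest to Plau were Dpep3 at 0.10, Rhod at 0.18 and Rad51b at 0.23. These distances rest on 3 arrays.

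Markers of cell types were compared because several of the 9 genes are also made by platelets, endothelium or fibroblasts. Of 7 measured macrophage markers all were detected on every array, and Csf1r was the brightest, with 196810, 230482 and 159074. Their summed signal was 610772 under CpG, 572568 under IFN-γ + αIL-10R and 522271 under Triple, but single markers differed more. In Triple, Mertk was 4.05-fold higher than in CpG, and Cd14 was 16.8-fold higher and Cd68 2.25-fold lower than in IFN-γ + αIL-10R. Of 5 platelet markers, Pf4 had 47339, 32005 and 11025 and was 4.13-fold and 2.84-fold lower in Triple. Ppbp was detected under CpG only (35.0, 6.61 and 6.73), and Itga2b, Gp1ba and Gp9 were not detected. The summed signal of these 5 was 47403, 32033 and 11051.

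Of 6 endothelial markers, Kdr had 5344, 5725 and 5706, Cdh5 was detected under CpG only (35.3, 17.6 and 13.4), and Tek, Tie1, Emcn and Cldn5 were not detected on any array. Their sum, nearly all Kdr, was 5400, 5772 and 5747. Of 5 measured fibroblast markers, 3, 2 and 4 were detected, with sums of 544, 332 and 629. Col1a2 was the brightest, with 317, 216 and 319, while Lum was detected in Triple only, at 148, and at least 6.45-fold higher there than in CpG and at least 5.65-fold against IFN-γ + αIL-10R. Col3a1 (38.8, 9.79 and 58.5, the second not detected) was also at least 2.24-fold higher in Triple than in IFN-γ + αIL-10R, and Col1a1 (177, 94.5 and 98.3) was 1.73-fold lower than in CpG.

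Neutrophil markers summed to 3786, 9409 and 4865, mostly Elane under CpG, at 2839, and Ly6g on the other arrays. They went different ways in Triple against IFN-γ + αIL-10R: Ly6g (555, 7699 and 2658) was 2.84-fold lower, though 4.98-fold higher than in CpG, S100a8 (297, 55.7 and 517) 9.47-fold higher and Camp (72.9, 17.5 and 139) at least 5.32-fold higher. Dendritic markers summed to 36119, 37999 and 30034, mostly Siglech, and the sum does not show the dimmer ones. Clec9a had 5.35, 1963 and 152, at least 6.64-fold higher in Triple than in CpG and 12.6-fold lower than in IFN-γ + αIL-10R. Zbtb46 had 25.1, 36.3 and 133, at least 5.50-fold and 3.74-fold higher. Lymphocyte markers summed to 930, 950 and 861, mostly Cd3e. Of 2 measured mast cell and basophil markers 0 were detected. The part of other cells in the results was not tested.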

How the data were processed

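RNA of BMDMs was measured on 1 Agilent mouse array per condition. The authors deposited, per the file headers, intensity values from Agilent Feature Extraction 10.10.1.1: processed signals after subtraction of a fitted background and detrending, with surrogates for dim spots. The authors also deposited a log2 table, which was log2 processed signal minus 1 constant per array, equal to signals of 368, 373 and 338 (CpG, IFN-γ + αIL-10R, Triple) (100% of 55249 probes within 0.01), with medians of −4.26, −4.38 and −4.27. Its scaling was not stated in the sources used here. The constants were close to each array's 75th percentile over all probes, at signals of 371, 376 and 340. The authors' table and that scaling are thus nearly the same alternative. Gene names are those of the array, and all 12 probes matched RefSeq accessions.

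Control spots and spots with outlier marks (3.04%, 3.78% and 3.33%) were left out, spots of a probe averaged, and log2 signals scaled by each array's 75th percentile over probes well above background on all arrays, since 44.2% of probes were detected. These percentiles were signals of 4550, 4473 and 4378. The probe with the highest mean stood for a gene. Dimmer probes were set to each array's lowest signal well above background (23.8, 26.7 and 26.3) where they lay under it. More than 2-fold with the brighter signal well above background was counted, and no test was made. The calculation was tested on simulated data. With 1 array per condition, precision is limited by the number of arrays.

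The members and lists were chosen with earlier results of these data known. Named are the 9 genes, pathway genes past 2-fold, the 3 genes nearest to each member past 2-fold in both Triple comparisons and well above background on all arrays (not Serpinb2), and treatment, reference and cell marker genes. The lists were cascade, inhibitors, thrombin receptors, fibrinolysis, thrombospondins, interferon-γ, Toll-like receptor and IL-10 responses, reference genes and 8 sets of cell markers. Vwf, Serpina5, Lyz2, Dcn, Cpa3 and Ppia had no spot free of outlier marks on every array. Alternatives were other scalings, normexp with an offset of 50, the authors' table, the mean of all probes, other filters and thresholds, outlier spots kept and, chosen after seeing the data, the other probe of F10, F7 or F3. Tools were Python 3.11.15, numpy 2.4.6, pandas 2.3.3, scipy 1.17.1, matplotlib 3.10.9, R 4.3.3 and limma 3.58.1.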

Additional observations from a re-analysis of the deposited data

How the results depend on the processing

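No paired analysis was possible with 1 array per condition. Of 196 folds of the 9 genes under the alternatives, 166 differed from the value reported by less than the technical SD over all spots with replicates (0.13 for the Triple comparisons, 0.12 for CpG over IFN-γ + αIL-10R). Of the 196, 156 were other scalings, which move all genes nearly alike, and all 156 were among the 166. Of the other 40, 10 were, all of them with normexp, which took 16 of 26 folds further. Outlier spots kept and, for genes with 1 probe, the mean of all probes are not in this tally, since they change no spot or probe of these genes. No value could be given for F3 with its other probe in any comparison, for F3 between CpG and IFN-γ + αIL-10R with the mean of all probes, or for Serpinb2 between CpG and IFN-γ + αIL-10R. The direction of F10 over CpG reversed, to a log2 fold of 1.44 with the mean of all probes and 4.19 with its other probe, as did that over IFN-γ + αIL-10R, from −0.69 to 2.71 and 6.10, and the cause was not tested. Taking the 75th percentile over all probes moved the median log2 fold of Triple over IFN-γ + αIL-10R from −0.04 to 0.07.

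For Triple over CpG, the genes higher went from 4 to 2 when both signals had to be well above background, and those lower from 3 to 1 at 3-fold. The pathway genes higher went from 2 to 1 with normexp, 9 without a filter, 1 with both well above background, 5 at 1.5-fold and 0 at 3-fold, and those lower from 6 to 2 at 3-fold. For Triple over IFN-γ + αIL-10R, the genes lower went from 2 to 1 with normexp and to 1 at 3-fold. The pathway genes higher went from 0 to 2 with the percentile over all probes, 1 with quantile scaling, 1 in the authors' table, 6 without a filter and 3 at 1.5-fold, and those lower from 4 to 1 at 3-fold. For CpG over IFN-γ + αIL-10R, the genes higher went from 3 to 0 at 3-fold and those lower from 1 to 3 at 1.5-fold and 0 at 3-fold. The pathway genes higher went from 0 to 2 without a filter and 3 at 1.5-fold, and those lower from 0 to 2 without a filter and 2 at 1.5-fold. The cause was not tested.

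Signals near background limit F3, F7 and Serpinb2, and 1 array per condition limits every value.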
